A study of Mus musculus with 6 samples.

Results

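The TNF superfamily is a set of ligands and receptors through which cells of the immune system, the vessel wall and the stroma exchange signals for survival, activation and death. The genes described here are the rows of the count table whose symbols begin with Tnfsf or Tnfrsf followed by a digit, together with Tnf, Lta, Ltb, Ltbr, Cd40, Cd40lg, Fas, Fasl, Cd27 and Cd70. This gave 42 of 21671 named genes, of which 17 are ligands and 24 receptors, and 1 (Tnfsf12Tnfsf13) is a joined transcript of neighbouring ligand genes. Of the 42, 32 passed the filter on low counts and were tested. Each of them had libraries of both groups above the filter's cutoff. For Tnfrsf11b and Tnfsf14 these were 3 libraries after doxycycline but only 2 untreated ones. For Tnfsf4 they were 2 libraries after doxycycline and 3 untreated ones. The rest of the tested genes had 3 in each group.

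RNA came from tumours in CD1 nude mice that had received transformed hepatoblasts, liver progenitor cells with the conditional hairpin vector TtRMPVIR shST18. The 3 doxycycline libraries came from tumours taken 4 h after doxycycline by oral gavage, which switches on the hairpin against St18, a zinc finger transcription factor, and their genotype label is ST18 knockdown. The 3 untreated libraries carry the genotype label wild type, although the treatment text describes hepatoblasts with the vector for all animals. No group received doxycycline without the hairpin, so effects of the drug and of the hairpin cannot be told apart. Nude mice lack a thymus and most mature T cells but keep B cells, natural killer cells and myeloid cells. The labels do not say whether the libraries of a group are separate animals, so p-values describe the spread among libraries, which may be technical.

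Libraries held 12090309 to 15899374 counts after doxycycline and 13148155 to 16169043 counts untreated. In the libraries labelled ST18 knockdown St18 itself was no lower, with 34, 12 and 61 counts against 12, 23 and 19 untreated (log2 fold change 1.03, edgeR adjusted p = 0.298). The hepatic markers Alb and Hnf4a were sparse, with 2 counts of Alb and 20 of Hnf4a over the doxycycline libraries, and 5 and 20 over the untreated ones. Afp, which passed the count filter, had 28 counts over the doxycycline and 44 over the untreated libraries. Of the cell types a tumour can hold, skeletal muscle had the largest shift. The summed level of 15 muscle markers, in CPM (counts scaled to the library total), was 438 to 3015 after doxycycline and 82.6 to 228 untreated, with 10 of 15 markers called higher. Over all tested genes edgeR called 2.84% higher and 2.18% lower. The cell type markers were chosen with earlier results of these data known. Given after doxycycline against untreated, summed levels were 593 to 856 against 496 to 588 CPM for 13 macrophage markers (3 called higher), 1801 to 2050 against 1344 to 1391 CPM for 14 fibroblast and mural markers (3 higher), and 636 to 668 against 563 to 599.7 CPM for 12 endothelial markers (2 higher). In the same order of groups, doxycycline against untreated, they were 45.4 to 85.1 against 105 to 171 CPM for 13 neutrophil markers (1 of 10 tested lower), 188 to 216 against 142 to 176 CPM for 12 dendritic cell markers (none called), and 15.9 to 18.8 against 13.0 to 15.4 CPM for 18 T, NK and B cell markers (none called). The 11 mast cell markers, whose sum Kit and Gata2 dominated, summed to 189 to 252 CPM after doxycycline against 265 to 311 CPM untreated, although 5 of 8 tested ones were positive (median log2 fold change 2.11; Mcpt4 called higher, Kit lower), the 9 keratinocyte markers to 8.04 to 139 CPM after doxycycline against 10.9 to 114 CPM untreated, and the 14 hepatoblast and biliary markers to 194 to 292 CPM after doxycycline against 177 to 282 CPM untreated (none called in either). None of these markers was at 0 in all 6 libraries, and the part of these cells in the superfamily's values was not tested. In bulk tumour RNA, fewer cells of a type and less RNA per cell cannot be told apart.

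As background, the ligands are mostly trimers on the cell surface or shed from it, and each binds 1 or several receptors. Receptors with a death domain, such as TNFR1, encoded by Tnfrsf1a, and Fas, can recruit FADD and caspases, while others bind TRAF adaptors and activate NF-kB and MAP kinases. Decoy receptors bind ligand without passing on a signal. Several receptors of the superfamily are known for the non-canonical NF-kB route, in which the kinase NIK drives processing of NFKB2 and its pairing with RELB.

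No gene of the superfamily passed the threshold of 0.05 on the adjusted p in edgeR's quasi-likelihood test (0 of 32), while 5.02% of all 14809 tested genes did, 2.84% higher and 2.18% lower. An unadjusted p under 0.05 was reached by 9 of 32 (28.1%), against 23.9% of all genes. The groups did not overlap for 9 of 32 (28.1%), against 29.6% of all genes. The doxycycline libraries lay above in 4 members (12.5%, against 15.2% of all genes) and below in 5 (15.6%, against 14.4%). The superfamily's shares of small p-values and of separated groups therefore lay close to those of all genes. DESeq2 called 2 members, Cd40 lower and Tnfrsf11a higher, against 1669 of all 14809 genes. The limma-voom fit called no member, against 527 of all genes. The median log2 fold change was -0.15 for the 32 members and 0.01 for all genes, and 18 of the 32 were negative. The members' median was -0.06 with offsets for GC content and length, and 0.00 over all 42 members without the filter, with 21 negative. Added over all 42 members, the level was 681, 639 and 744 CPM after doxycycline and 816, 756 and 817 CPM untreated, without overlap. The gap was not seen in the ligands, which were slightly above. Their sums were 48.7, 48.0 and 50.3 CPM after doxycycline and 47.5, 44.7 and 43.3 CPM untreated. Of receptor classes, only death domain receptors were apart, at 291, 277 and 267 CPM after doxycycline and 319, 303 and 323 CPM untreated. TRAF-binding receptors overlapped, at 300, 292 and 372 CPM after doxycycline and 399, 369 and 394 CPM untreated, and decoy receptors overlapped too. With offsets for GC content and length, log2 fold changes of the abundant Ltbr and Tnfrsf1a were -0.04 and -0.05.

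The most abundant receptors stood at far higher levels than any ligand. Per kilobase of exonic length, Ltbr, the lymphotoxin beta receptor, stood first with 37.8 CPM per kb after doxycycline and 44.8 untreated. Next came the TNF receptor Tnfrsf1a (38.9 after doxycycline and 43.5 untreated) and the death receptor Tnfrsf21 (27.3 and 31.0). The second TNF receptor Tnfrsf1b (24.5 and 31.5) and the TWEAK receptor gene Tnfrsf12a (23.8 and 30.2) followed. The TRAIL receptor Tnfrsf10b was at 11.1 and 13.0 CPM per kb. Ranked by the mean over all 6 libraries, the first 10 places were all receptors. The highest ligand per length over all libraries was Tnfsf9, the CD137 ligand, with 5.18 CPM per kb after doxycycline and 7.40 untreated, and Tnfsf12, which encodes TWEAK, was at 7.35 and 5.11. Tnf itself was at 1.08 and 1.20 CPM per kb. In that order Ltbr and Tnfrsf1a were not separated, since Tnfrsf1a was the higher of them after doxycycline and Ltbr the higher untreated, and Tnfrsf21 and Tnfrsf1b likewise changed places between the groups.

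**Figure D1:**
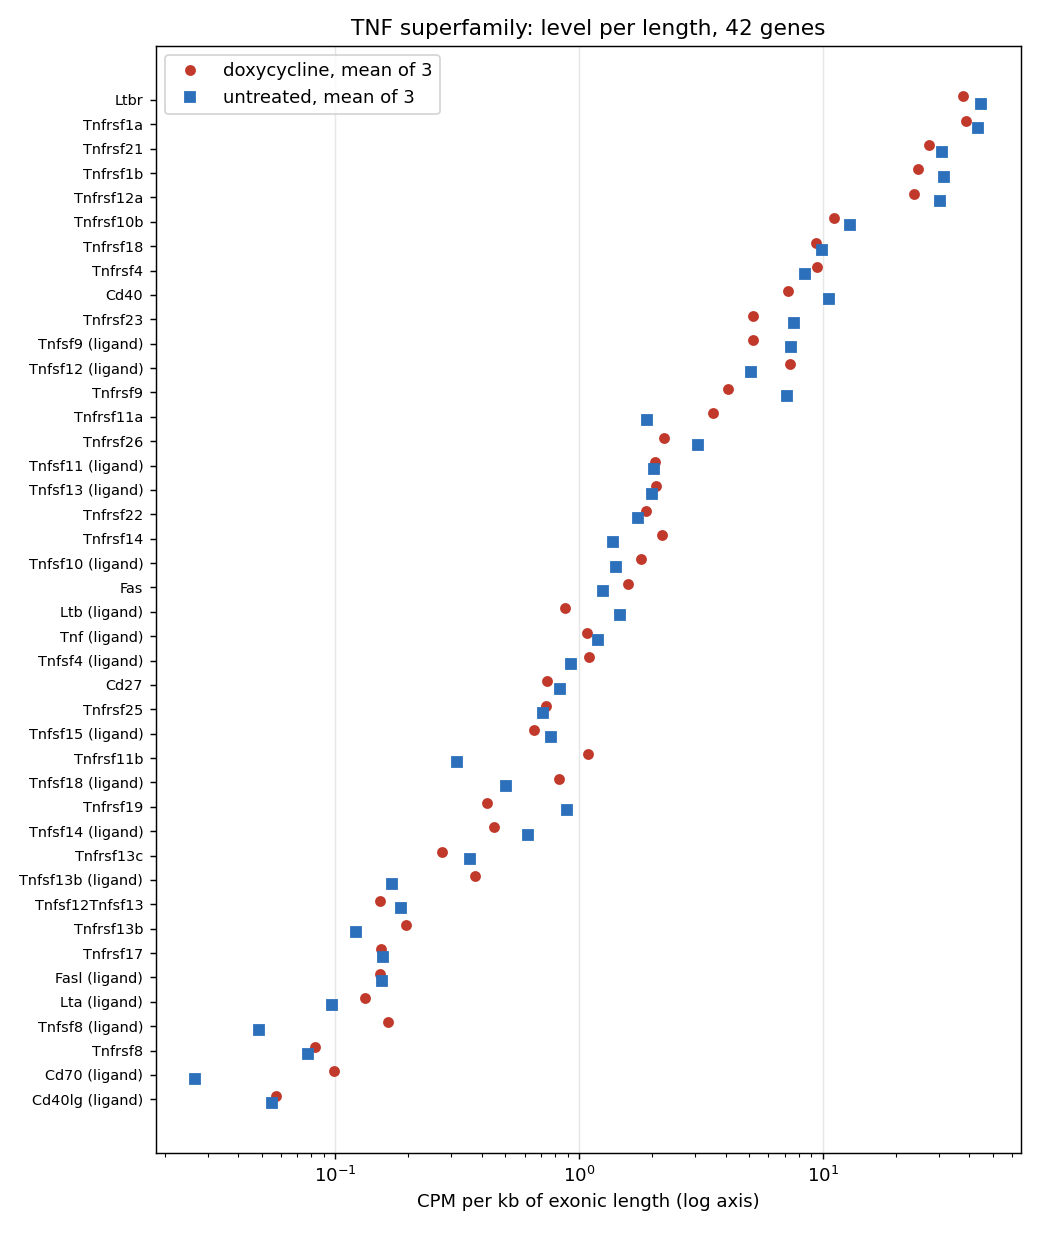
Mean level of each of the 42 genes in CPM per kb of exonic length (log axis), with circles for the mean of the 3 doxycycline libraries and squares for the mean of the 3 untreated libraries. Receptors fill the upper end, led by Ltbr and Tnfrsf1a. Lymphocyte ligands such as Cd40lg and Cd70 stand at the lower end, with the receptors Tnfrsf8 and Tnfrsf17 near them.

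The 10 genes that failed the count filter never exceeded 13 counts in a library. They were the ligands Lta, Cd40lg, Fasl, Cd70 and Tnfsf8, the receptors Tnfrsf8, Tnfrsf13b, Tnfrsf13c and Tnfrsf17, and the joined transcript Tnfsf12Tnfsf13. Cd40lg, the T cell ligand of CD40, had exactly 1 count in each of the 6 libraries, and Cd70 had 4 counts in doxycycline replicate 3 and 1 in untreated replicate 3. Tnfsf8, the CD30 ligand, had 11, 5 and 10 counts after doxycycline and 3, 2 and 3 untreated, without overlap and without a test. The receptors of BAFF and APRIL, Tnfrsf13b, Tnfrsf13c and Tnfrsf17, are B lineage genes, and none of them reached 1 CPM in any library. T cell marker Cd3e was equally sparse, with 6 counts over the doxycycline and 8 over the untreated libraries.

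Among the ligands, none of 12 tested passed and the median log2 fold change was 0.04. Tnfsf13b, which encodes the B cell survival factor BAFF and is made mainly by myeloid and stromal cells, had 2.35, 1.79 and 3.58 CPM after doxycycline and 0.908, 1.19 and 1.42 CPM untreated. Every doxycycline library lay above every untreated one (log2 fold change 1.13, 95% interval 0.21 to 2.04, edgeR adjusted p = 0.137). Summed macrophage markers and fibroblast and mural markers also lay above without overlap. So did those of dendritic cells (8 of 11 tested markers positive, 3 negative), endothelium, skeletal muscle, and T, NK and B cells. Summed neutrophil markers lay below (45.4 to 85.1 CPM after doxycycline against 105 to 171 CPM untreated). So did summed mast cell markers, although 5 of 8 tested ones had a positive log2 fold change. The part of these cells in the Tnfsf13b values was not tested. Ltb, which encodes lymphotoxin beta, the membrane anchor of the ligand for LTBR, had 1.51, 1.37 and 1.13 CPM after doxycycline and 2.57, 2.07 and 2.09 CPM untreated. These groups did not overlap either, with the doxycycline libraries below (-0.75, interval -1.52 to 0.02, edgeR adjusted p = 0.223). The values of Ltb rest on 18 to 20 counts after doxycycline and 31 to 34 untreated.

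Tnfsf12 had 13.7, 9.96 and 9.78 CPM after doxycycline and 8.62, 7.29 and 7.29 CPM untreated, all doxycycline libraries above (0.52, interval -0.02 to 1.07, edgeR adjusted p = 0.230). Its gene overlaps the annotated Tnfsf12Tnfsf13 transcript and lies beside Tnfsf13, and how shared reads were counted is not given, so its value is uncertain. Tnfsf10, which encodes the death ligand TRAIL, had 8.72, 8.59 and 11.1 CPM after doxycycline and 5.75, 10.4 and 6.41 CPM untreated, with overlapping groups (0.33, adjusted p = 0.537). Tnf had 1.34, 2.20 and 1.76 CPM after doxycycline and 2.42, 1.32 and 2.16 CPM untreated (-0.14, interval -1.02 to 0.73). That interval includes changes in both directions, so these libraries fix neither a direction nor the absence of a difference for Tnf.

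The TRAF-binding receptors held the members with the 2 smallest p-values, Cd40 and Tnfrsf11a, and none of 11 tested passed (median log2 fold change -0.24). Cd40, the receptor through which B cells, dendritic cells and macrophages receive T cell help, had 22.5, 27.3 and 24.0 CPM after doxycycline and 35.4, 35.3 and 37.8 CPM untreated. The gap between the groups was wider than the spread within either, which gave -0.56 on the log2 scale (SE 0.13, 95% interval -0.86 to -0.25) and an edgeR adjusted p of 0.0535. The adjusted p of Cd40 was 0.00534 with DESeq2, 0.0134 in edgeR without doxycycline replicate 2 and 0.0489 with offsets for GC content and length. It was 0.0586 with limma-voom, 0.126 with the replicate block, and 0.188, 0.149 and 0.257 without untreated replicates 1, 2 and 3, and its log2 fold change lay between -0.50 and -0.64 in all alternatives run. Over all genes, DESeq2 called 1669 of 14809, and edgeR without doxycycline replicate 2 called 2110 of 15217. Macrophage and dendritic cell markers, whose cells are known to carry CD40, summed higher after doxycycline (593 to 856 CPM against 496 to 588 CPM untreated, and 188 to 216 CPM against 142 to 176 CPM untreated). Their part in the Cd40 values was not tested.

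Ltbr had 86.6, 95.3 and 85.4 CPM after doxycycline and 109, 99.4 and 108 CPM untreated. The groups did not overlap, with the highest doxycycline library close under the lowest untreated one (-0.24, interval -0.44 to -0.04, edgeR adjusted p = 0.139). Ltbr was called lower only without doxycycline replicate 2 (-0.30, adjusted p = 0.0446), and its log2 fold change was -0.04 with offsets for GC content and length. Tnfrsf1b, the TNF receptor of leukocytes and endothelium, had 83.7, 77.0 and 120.2 CPM after doxycycline and 124, 118 and 119.6 CPM untreated. Doxycycline replicate 3 lay within the untreated range, and the other two lay well below it (-0.36, SE 0.16, edgeR adjusted p = 0.205). Without doxycycline replicate 3 the log2 fold change of Tnfrsf1b was -0.58 and passed (adjusted p = 0.0342). Neutrophil markers, from cells known to carry this receptor, summed to 54.4, 45.4 and 85.1 CPM after doxycycline and 116, 105 and 171 CPM untreated. Endothelial markers summed to 636 to 668 CPM after doxycycline against 563 to 599.7 CPM untreated, and macrophage markers to 593 to 856 CPM against 496 to 588 CPM untreated, both in the other direction. The part of these cells was not tested.

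The RANK axis is known from bone, where the receptor RANK on osteoclast precursors answers to RANKL and the decoy osteoprotegerin blocks it, and none of its 3 genes passed. The receptor gene Tnfrsf11a had 22.1, 16.8 and 25.0 CPM after doxycycline and 14.8, 10.9 and 8.64 CPM untreated, all doxycycline libraries above (0.90, SE 0.26, interval 0.32 to 1.48, edgeR adjusted p = 0.0825). It was called higher by DESeq2 (adjusted p = 0.0143) and in edgeR without doxycycline replicate 2 (1.04, adjusted p = 0.0198). The decoy gene Tnfrsf11b had 2.01, 3.37 and 3.83 CPM after doxycycline and 0.227, 1.45 and 1.01 CPM untreated, again with every doxycycline library above (1.75, interval 0.46 to 3.05, adjusted p = 0.112). Its 3 counts in untreated replicate 1 were the fewest, and without that library its log2 fold change was 1.31. The ligand gene Tnfsf11 had 3.94, 5.29 and 4.52 CPM after doxycycline and 5.37, 5.03 and 3.24 CPM untreated, with a log2 fold change of 0.01 (interval -0.69 to 0.72). In the same libraries fibroblast and mural markers summed to 1801 to 2050 CPM after doxycycline against 1344 to 1391 untreated, and macrophage markers to 593 to 856 CPM after doxycycline against 496 to 588 CPM untreated. The part of these cells in the Tnfrsf11a and Tnfrsf11b values was not tested.

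**Figure D2:**
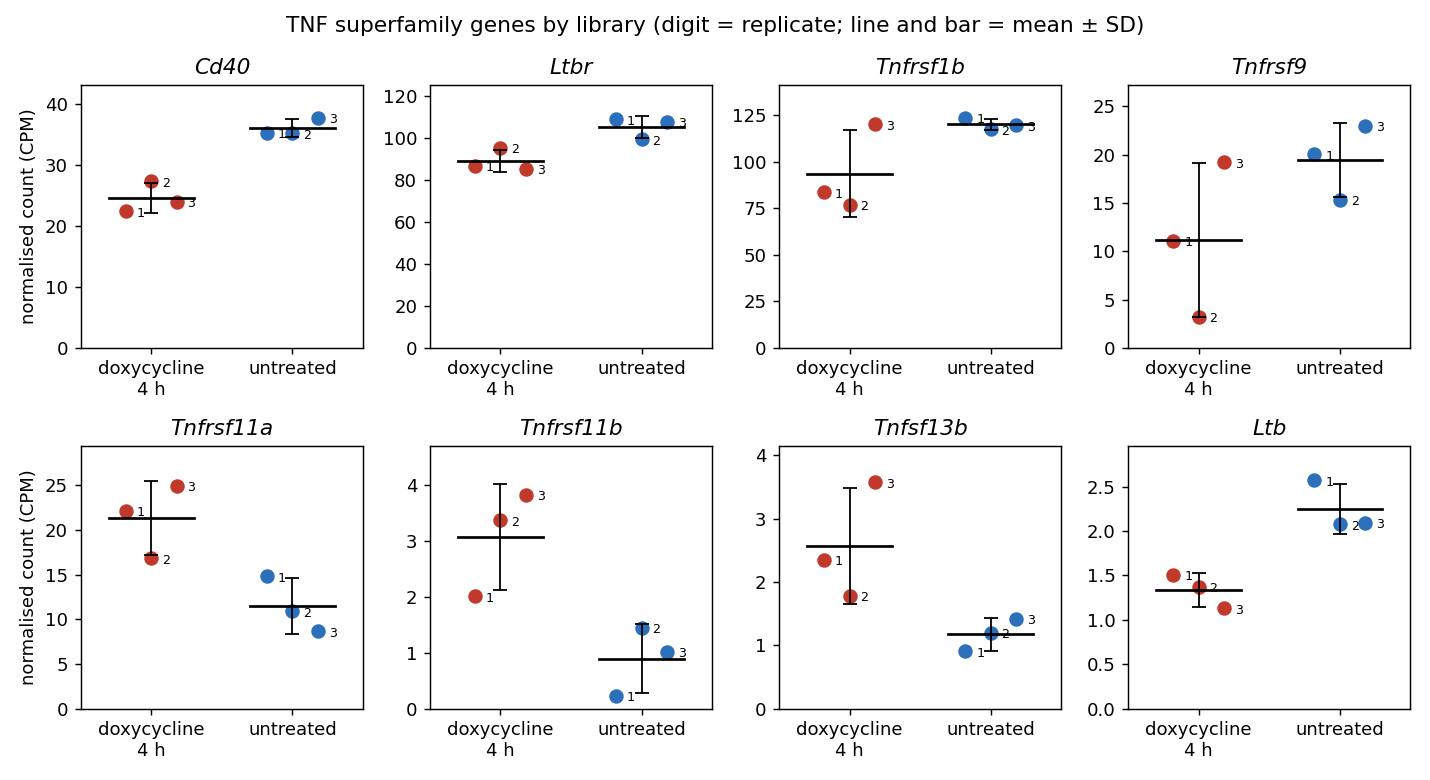
Normalised counts (CPM, axes from 0) of 8 superfamily genes, with the 3 doxycycline libraries left of the 3 untreated libraries in each panel, replicate numbers beside the points, and lines and bars for the mean ± SD. The groups are apart for Cd40, Ltbr, Tnfrsf11a, Tnfrsf11b, Tnfsf13b and Ltb, while Tnfrsf1b and Tnfrsf9 overlap through doxycycline replicate 3.

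Both remaining receptors of this class with an unadjusted p under 0.05 were below their untreated mean. Tnfrsf12a had 40.7, 46.5 and 50.7 CPM after doxycycline and 62.4, 50.2 and 62.5 CPM untreated, overlapping by 1 library (-0.34, adjusted p = 0.165), while its ligand Tnfsf12 had the opposite sign. Tnfrsf19, which encodes the orphan receptor TROY, had 3.02, 1.79 and 1.19 CPM after doxycycline and 2.50, 5.41 and 4.79 CPM untreated (-1.10, interval -2.12 to -0.07, adjusted p = 0.183). Besides Tnfrsf9 and Tnfrsf4, which are described with the decoy receptors, the rest of the class and of the tested ligands were Tnfrsf14, Tnfrsf18, Cd27, Tnfsf4, Tnfsf9, Tnfsf13, Tnfsf14, Tnfsf15 and Tnfsf18. Their groups all overlapped, their log2 fold changes lay between -0.52 and 0.73, and no adjusted p was below 0.347.

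Of the 5 death domain receptors none was called (median log2 fold change -0.16), and Tnfrsf1a, Tnfrsf21 and Tnfrsf10b were the abundant ones. Tnfrsf21 had 118, 115 and 103 CPM after doxycycline and 128, 130.2 and 124 CPM untreated, all doxycycline libraries below (-0.19, SE 0.08, edgeR adjusted p = 0.206). Tnfrsf1a had 95.8, 107.18 and 99.0 CPM after doxycycline and 112, 107.21 and 118 CPM untreated, a separation that rested on nearly equal values in doxycycline replicate 2 and untreated replicate 2 (-0.16, interval -0.35 to 0.03, adjusted p = 0.286). Tnfrsf10b had 72.6, 49.1 and 60.0 CPM after doxycycline and 74.9, 62.6 and 74.7 CPM untreated, with overlap (-0.22, interval -0.57 to 0.12, adjusted p = 0.412). Fas and the DR3 gene Tnfrsf25 were at 0.34 and 0.04 on the log2 scale, with adjusted p of 0.637 and 0.963.

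Grouped here, after their values were seen, are 4 receptors that varied widely among the doxycycline libraries, with replicate 2 lowest in each. Tnfrsf9, which encodes the activation receptor CD137, had 11.1, 3.23 and 19.2 CPM after doxycycline and 20.04, 15.3 and 22.9 CPM untreated (-0.80, interval -1.97 to 0.37, edgeR adjusted p = 0.388). Tnfrsf4, which encodes the activation receptor OX40, had 14.0, 5.22 and 19.8 CPM after doxycycline and 11.7, 10.9 and 11.9 CPM untreated (0.18, adjusted p = 0.840). Tnfrsf23 and Tnfrsf22 encode mouse decoy receptors for TRAIL and are close relatives, so reads may be split between them. Tnfrsf23 had 24.0, 6.66 and 30.8 CPM after doxycycline and 33.7, 22.5 and 34.5 CPM untreated (-0.56, adjusted p = 0.505), and Tnfrsf22 had 8.47, 4.40 and 10.98 CPM after doxycycline and 6.96, 7.42 and 7.76 CPM untreated (0.11, adjusted p = 0.886). In each of these 4 genes the lowest of the 6 libraries was doxycycline replicate 2, the library with the highest sum of muscle markers (3015 CPM). Without it the log2 fold changes were -0.36 for Tnfrsf9, 0.55 for Tnfrsf4, -0.14 for Tnfrsf23 and 0.40 for Tnfrsf22. Over the 32 tested members that library was the lowest for 8 (25.0%), against 24.6% of all tested genes. The others were Cd27, Tnfrsf1b, Tnfrsf10b and Tnfsf9, so a lowest value there does not set Tnfrsf9, Tnfrsf4, Tnfrsf22 and Tnfrsf23 apart. Nor was it a feature of the superfamily as a whole, and the part of muscle in these values was not tested. Tnfrsf26, a receptor gene beside Tnfrsf22 with no assigned role here, had 5.95, 7.15 and 8.40 CPM after doxycycline and 9.68, 7.86 and 12.3 CPM untreated (-0.47, adjusted p = 0.329).

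**Figure D3:**
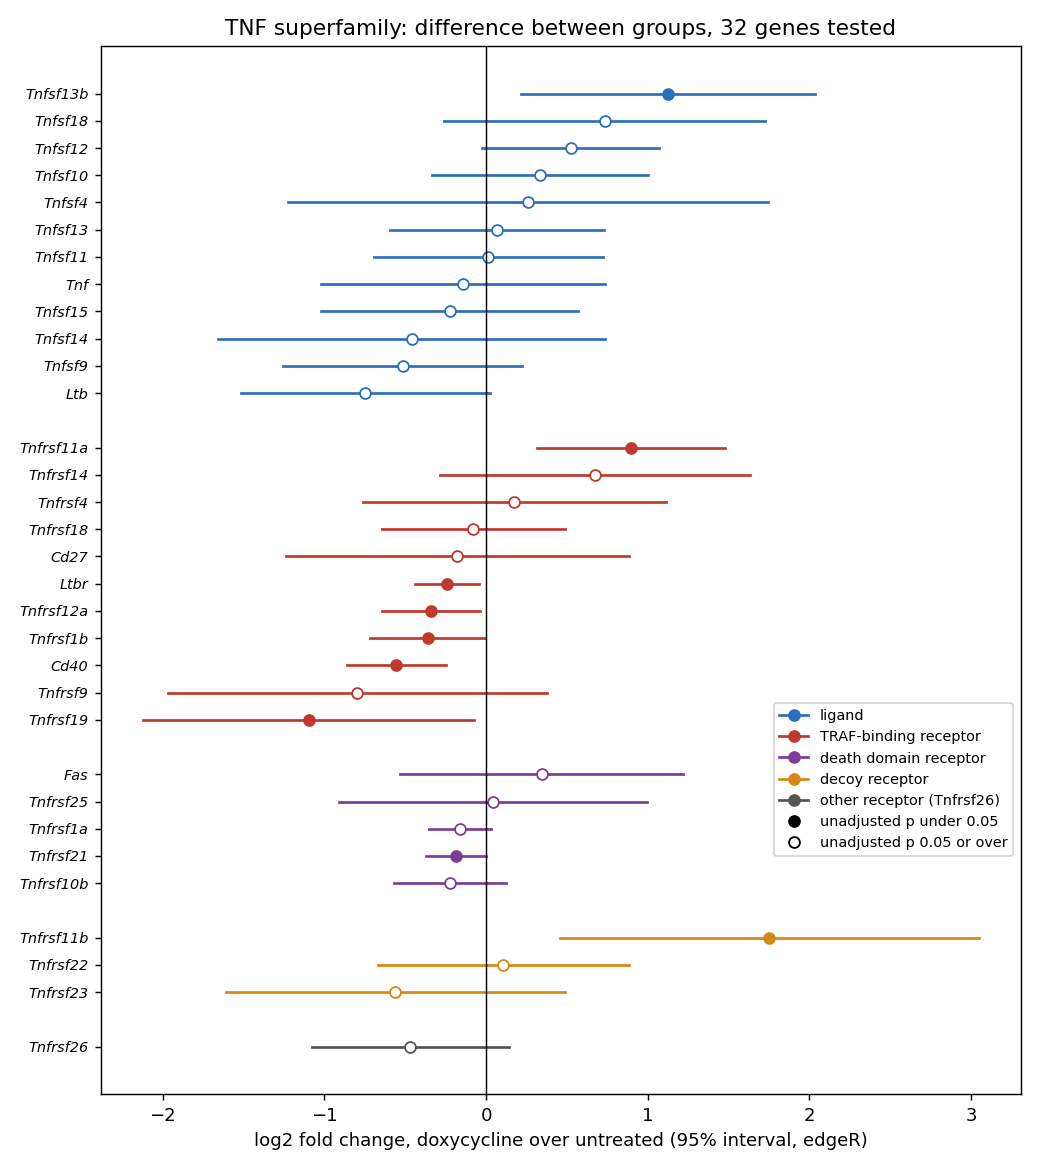
Log2 fold change, doxycycline over untreated, of the 32 tested genes with 95% intervals from edgeR, grouped by role from ligands at the top to decoys and Tnfrsf26 at the bottom. Filled points mark an unadjusted p under 0.05 (9 genes), and no gene had an adjusted p under 0.05.

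Many of these genes sit side by side in the genome, in the RefSeq order of protein-coding genes on GRCm38.p6. Ltb, Tnf and Lta follow each other on chromosome 17, Tnfsf9, Cd70 and Tnfsf14 on chromosome 17, Tnfsf4, Tnfsf18 and Fasl on chromosome 1, Tnfrsf4 and Tnfrsf18 on chromosome 4, and Tnfrsf26, Tnfrsf22 and Tnfrsf23 on chromosome 7. Cd27, Ltbr and Tnfrsf1a are separated by 1 gene each on chromosome 6. On the log2 scale Ltb was at -0.75 and Tnf at -0.14, Cd27 at -0.18, Ltbr at -0.24 and Tnfrsf1a at -0.16, Tnfsf9 at -0.52 and Tnfsf14 at -0.46, and Tnfsf4 at 0.26 and Tnfsf18 at 0.73, each set with 1 sign. Signs differed for Tnfrsf4 at 0.18 and Tnfrsf18 at -0.08, and for Tnfrsf22 at 0.11 beside Tnfrsf23 at -0.56 and Tnfrsf26 at -0.47. Some signs changed between fits: without doxycycline replicate 2, Tnfsf4 was at -0.53 and Cd27 at 0.16. None of these neighbouring genes was called in the main fit, and likeness between neighbours was not tested.

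Promoters bear on the superfamily because several of its genes are known NF-kB targets. A search of the 250 bases before the start of transcription, on both strands, for the consensus kappaB site bound by NF-kB found it in 3 of 35 promoters of 31 members (8.57%), against 3.90% of 32851 mouse promoters in RefSeq on GRCm38.p6. These were promoters of Ltb, Tnfrsf9 and Tnfrsf8. The Ltb and Tnfrsf9 windows are shown because both genes passed the count filter, with the matched bases in capitals. The Ltb window is chr17:35194257-35194506 on the plus strand, with the match at bases -87 to -78 from the start. The Tnfrsf9 window is chr4:150927749-150927998 on the plus strand, at the second of 2 annotated starts, with overlapping matches at bases -43 to -33.
Ltb: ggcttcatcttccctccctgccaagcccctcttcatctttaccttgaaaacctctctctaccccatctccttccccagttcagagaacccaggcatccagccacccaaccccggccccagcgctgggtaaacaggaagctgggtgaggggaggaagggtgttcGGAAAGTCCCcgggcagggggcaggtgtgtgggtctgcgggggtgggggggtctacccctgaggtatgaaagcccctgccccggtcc
Tnfrsf9: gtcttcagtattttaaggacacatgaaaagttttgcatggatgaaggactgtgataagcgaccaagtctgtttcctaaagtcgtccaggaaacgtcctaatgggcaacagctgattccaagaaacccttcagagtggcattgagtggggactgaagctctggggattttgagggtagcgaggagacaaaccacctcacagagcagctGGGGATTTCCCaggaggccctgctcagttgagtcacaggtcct
Both genes had lower mean levels after doxycycline (log2 fold changes -0.75 and -0.80) and neither passed the test, and a match of letters does not show a bound site.

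Beyond the ligands and receptors, 9 of 31 tested genes that TNF is known to induce were lower, against 2.18% of all genes. Most of these 9 were already known to be lower in these libraries when the list was drawn up. Relb and Nfkb2 were among the 9 and are also signalling genes of the non-canonical route, whose activity was not tested. Across the separate lists of receptor adaptors and ubiquitin ligases, the death complex, signalling kinases, negative regulators and shedding factors, 0 of 67 tested genes passed in edgeR (15 at an unadjusted p under 0.05), DESeq2 called 5 and limma-voom none. List medians were -0.10 for 16 adaptors and ligases, 0.06 for 14 death complex genes, 0.10 for 16 kinases, -0.05 for 13 negative regulators and -0.13 for 8 shedding genes, against 0.01 for all genes. In the shedding list, Adam10, a protease that cuts membrane ligands and receptors, had 197, 177 and 195 CPM after doxycycline and 150.4, 164 and 144 CPM untreated (0.31, adjusted p = 0.0607). Rhbdf2, which encodes the partner that brings the TNF-releasing protease ADAM17 to the surface, had 68.1, 30.9 and 55.9 CPM after doxycycline and 85.5, 82.4 and 92.7 CPM untreated (-0.75, adjusted p = 0.111). Both sets of values were apart, in opposite directions. Of superfamily genes with other symbols none of 5 tested was called: Ngfr, the neurotrophin receptor, was at 0.05 and Eda2r, a receptor of ectodysplasin, at 0.27 on the log2 scale.

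Of 31 TNF-induced genes tested, 9 were lower and none higher (29.0%, against 2.18% of all genes called lower). Their median on the log2 scale was -0.60. Most of these 9 were already known to be lower in these libraries when the list was drawn up. The count and the median are therefore no independent evidence of the list's direction. Tnfaip2, first found as a TNF-induced gene of endothelium, fell to 97.1, 109.7 and 113 CPM after doxycycline, against 158, 139.9 and 150.05 CPM untreated (-0.48, edgeR adjusted p = 0.0249). Relb, the NF-kB subunit of the non-canonical route, fell to 35.2, 29.96 and 38.6 CPM, against 60.3, 52.8 and 65.7 CPM untreated (-0.78, adjusted p = 0.0230), and Ier3, an early response gene, to 38.0, 28.0 and 37.9 CPM, against 63.3, 56.0 and 63.0 CPM untreated (-0.81, adjusted p = 0.0233). Cxcl1, a neutrophil attractant, fell by 1.14 on the log2 scale (adjusted p = 0.0132). Sele, which encodes the endothelial adhesion molecule E-selectin, fell to 99.3, 116 and 88.6 CPM after doxycycline, against 140.2, 139.1 and 143 CPM untreated (-0.47, adjusted p = 0.0403). The other members called lower were the chemokines Cxcl10, Ccl20 and Ccl2 and the NF-kB gene Nfkb2. In the same libraries neutrophil markers summed to 45.4 to 85.1 CPM after doxycycline against 105 to 171 CPM untreated, and endothelial markers, from the cells that make E-selectin, to 636 to 668 CPM after doxycycline against 563 to 599.7 CPM untreated. The part of these cells was not tested. Without untreated replicates 1, 2 and 3, none of the TNF-induced genes passed (13, 16 and 14 at an unadjusted p under 0.05), while the list median stayed between -0.31 and -0.67 in all alternatives run. The number called lower was 5 without doxycycline replicate 1, 12 without doxycycline replicate 2 and 4 without doxycycline replicate 3.

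**Figure D4:**
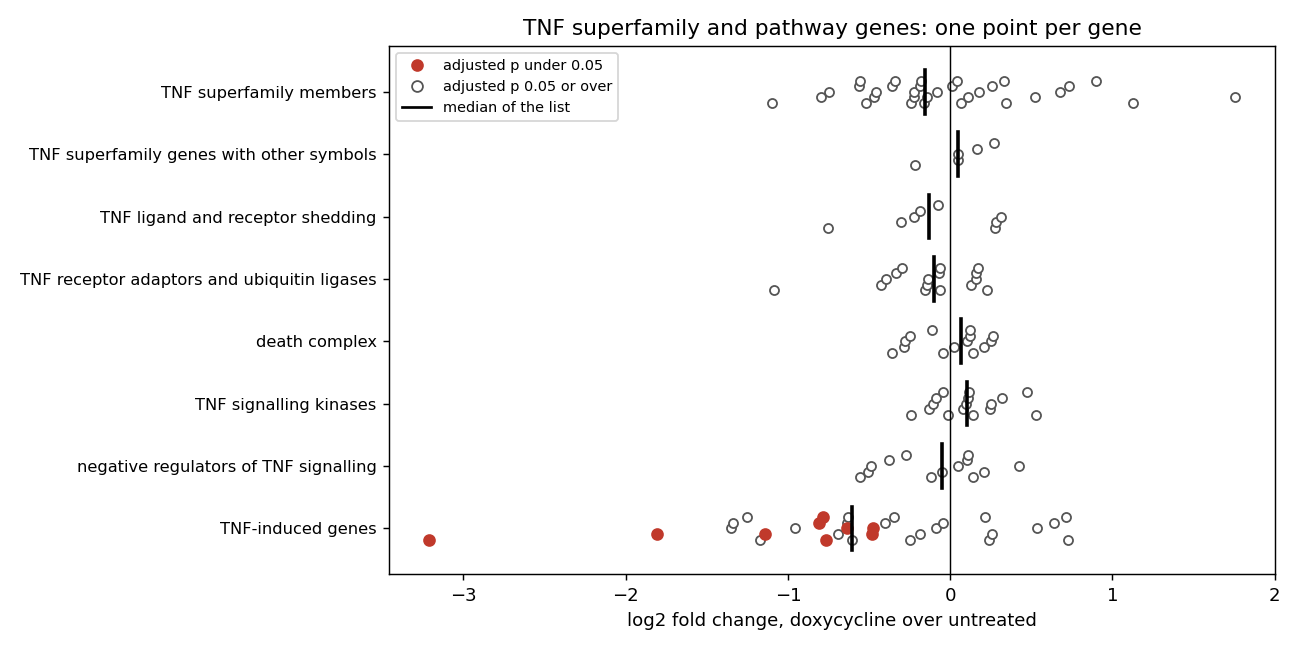
Log2 fold change, doxycycline over untreated, of each tested gene in the superfamily and in 7 lists of related genes, 1 point per gene, filled where the edgeR adjusted p was under 0.05, with a vertical line at the list median. Filled points occur only among the TNF-induced genes, where 9 of 31 are lower (against 2.18% of all genes) and the median is -0.60. Most of these 9 were already known to be lower in these libraries when the list was drawn up.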

How the data were processed

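Ribosome-depleted tumour RNA was sequenced in 6 libraries. The deposited table holds raw read counts per gene, which the authors made with TopHat2 2.0.8, TopHat and HTSeq on mm9, per the submitters' processing notes; how strand and shared reads were handled is not stated there. The 90 rows without a gene name (0.0361% to 0.0402% of counts) were left out. Groups follow the titles and the treatment label. In R 4.3.3, edgeR 4.0.16 was run on all 6 libraries with filterByExpr, TMM scaling, the robust quasi-likelihood fit, two-sided tests and Benjamini-Hochberg adjustment over all 14809 tested genes at 0.05. Log2 fold changes are doxycycline over untreated, with standard errors derived from the F statistic and 95% t intervals. CPM uses TMM-adjusted totals. Exonic lengths and GC content come from GENCODE M21 (GRCm38), another build than the authors' mm9, and cover all annotated exons of a gene. Alternatives were other scalings, no filter, DESeq2 1.42.0, limma-voom 3.58.1, a replicate block and leaving out each library, and, added after seeing the data, offsets for GC content and length. No pair of replicates was alike within counting error (ratio of chi-square to its degrees of freedom 5.40 to 31.8). Scripts were tested on simulated data. Members, gene lists and cell type markers were chosen with earlier results of these data known. Named were members with an adjusted p under 0.05 (none), in each role class the 3 with the smallest p and the 2 with the highest mean CPM, and up to 4 called genes per list; Tnf, Tnfsf11, Tnfrsf12a, Tnfrsf19, Tnfrsf9, Tnfrsf4, Fas, Tnfrsf25, Adam10, Rhbdf2, Ngfr, Eda2r, Sele and the last 4 called TNF-induced genes were singled out after their values were seen.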

Additional observations from a re-analysis of the deposited data

How the results depend on the processing

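Over all genes, 421 were higher and 323 lower. DESeq2 called 887 and 782, limma-voom called 251 higher, and leaving out 1 library gave 11 to 1244 higher and 12 to 866 lower, most without doxycycline replicate 2 and fewest without untreated replicate 1. Of superfamily members, none was called by edgeR, while DESeq2 called 1 higher and 1 lower, the GC and length offset 1 lower, and leaving out 1 library gave 0 to 1 higher and 0 to 2 lower (Cd40, Ltbr and Tnfrsf11a without doxycycline replicate 2, Tnfrsf1b without doxycycline replicate 3). Of pathway genes, 0 were higher and 9 lower, against 1 higher with library totals only, 4 and 14 with DESeq2, and 0 to 3 and 0 to 15 with 1 library left out, the 0 lower being without any 1 of the untreated replicates. The cause was not tested. The replicate numbers share only a number: deviations of same-numbered libraries correlated at -0.01, -0.07 and 0.02 for replicates 1, 2 and 3, and no library correlated best with its own number. With the replicate block, 215 genes were higher and 179 lower, no member was called and 5 pathway genes were lower. Scaling by RLE or library totals, no filter and limma-voom called no member. Among the members with few counts, Tnf had 76 counts over the doxycycline and 85 over the untreated libraries and an SE of 0.39 on the log2 scale, and Ltbr, with 3781 over the doxycycline libraries, an SE of 0.09. Spread among libraries adds to this: Tnfsf4, with 5, 55 and 30 counts after doxycycline, had an SE of 0.65.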
